A study of Homo sapiens with 2 samples.

Results

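Cytosolic ribosomal proteins were described on 2 arrays of HT-29 cells, an established human colorectal adenocarcinoma line, 1 hybridized with RNA from cells transfected with an siRNA pool against MYC and 1 with RNA from control cells. A gene was a member if a probe set named it alone in the platform annotation and its symbol was that of a ribosomal protein of the cytosolic small (40S) or large (60S) subunit. Kinases of RPS6, pseudogenes and mitochondrial ribosomal proteins were left out. The rule gave 60 genes of 19775 genes on the array, of which 21 encode 40S proteins, 32 encode 60S proteins and 7 are paralogs whose symbols end in L or L1. In the RefSeq annotation 85 genes have such a symbol, and the other 25, among them RPL5, RPLP0, RPSA and RPS27A, had no probe set of their own and were not analysed here.

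Both groups were given siRNA at 20 nM for 24 h and were used after 48 h, and whether that time includes the 24 h is not stated. Per the protocol the control cells got a pool of siRNA without a target, although the treatment field of that array reads None, and the array is called control siRNA here. Each group was 1 array, so no difference below has a replicate check, no p-value was computed, and every value describes these 2 arrays only. MYC, the targeted gene, went from 1963 in the control array to 1640 in the MYC siRNA array in its only probe set, 1.20-fold lower. That is a log2 ratio of -0.26. All 8917 genes with a signal above 50 in at least 1 array had quartiles of -0.22 and 0.31. Other genes with a mean signal of at least 2000, which MYC did not reach, had quartiles of -0.28 and 0.06. The study reports knockdown of MYC by siRNA on immunoblots, a measure of protein that these arrays do not give. Of 12 markers of colon epithelium 9 were above a signal of 50, the floor used here, and CDX1, CDX2 and TFF3 were at or under it. Their summed signal was 36612 in the control and 42830 in the MYC siRNA array, with 7 markers higher and 2 lower (median log2 ratio 0.39), and the part of that shift in the results below was not tested. All 5 blood cell markers with a probe set of their own were at or under 50 in both arrays. So were 9 of 10 fibroblast and endothelial markers, the exception being COL1A1 at 94.7 and 78.9.

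Ribosomal proteins clothe the ribosomal RNAs and are made in nearly equal amounts, 1 copy of most of them in each ribosome. MYC is known for raising the production of ribosomes, through ribosomal RNA synthesis, assembly factors and ribosomal protein genes. The mRNAs of ribosomal proteins start with a cytosine followed by a run of pyrimidines, the 5′ terminal oligopyrimidine (TOP) tract, through which mTORC1 and the RNA-binding protein LARP1 control their translation. Some ribosomal proteins have a second gene, a paralog, whose product can take the place of the parent protein or has a role of its own.

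The annotated start of transcription shows what these genes share and where paralogs part from their parents. The windows below run 5′ to 3′ from 15 bases before the start through the first 15 transcribed bases (RefSeq, GRCh38.p14), and capitals mark an unbroken run of C and T that begins with C at the start itself. The first 4 are the genes with the largest decreases among 40S and 60S genes, followed by 2 with small ones and then by parents and paralogs.
RPL14 (chr3:40457324-40457353, plus strand): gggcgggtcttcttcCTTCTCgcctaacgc
RPL36 (chr19:5690280-5690309, plus strand): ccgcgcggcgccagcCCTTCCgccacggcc
RPL35A (chr3:197950175-197950204, plus strand): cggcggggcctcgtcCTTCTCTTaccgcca
RPS24 (chr10:78033848-78033877, plus strand): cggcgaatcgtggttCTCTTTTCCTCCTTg
RPS6 (chr9:19380222-19380251, minus strand): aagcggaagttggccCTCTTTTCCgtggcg
RPL41 (chr12:56116618-56116647, plus strand): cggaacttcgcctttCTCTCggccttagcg
RPL22 (chr1:6199581-6199610, minus strand): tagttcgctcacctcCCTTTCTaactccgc
RPL22L1 (chr3:170870181-170870210, minus strand): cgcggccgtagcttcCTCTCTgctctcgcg
RPS27 (chr1:153990747-153990776, plus strand): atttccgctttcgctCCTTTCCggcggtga
RPS27L (chr15:63157463-63157492, minus strand): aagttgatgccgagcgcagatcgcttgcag
RPL7L1 (chr6:42879601-42879630, plus strand): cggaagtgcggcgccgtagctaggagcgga
RPL26L1 (chr5:172958714-172958743, plus strand): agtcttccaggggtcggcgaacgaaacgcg

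A C at the start followed by at least 4 letters that are each C or T, read on the strand of the gene, was present in 34 of the 47 genes of 40S and 60S proteins with a promoter in the RefSeq table, which is 72.3%. The share was 4.04% of 27305 promoters of all genes and 4.60% of 15842 promoters of protein-coding genes. It was 15 of 20 for 40S and 19 of 27 for 60S genes. When the same letters could lie anywhere from 10 bases before to 15 bases after the start, they were found in 43 of the 47 genes, against 33.3% of all promoters. Of the 5 paralogs with a promoter in the table, only RPL22L1 had the run at its start, whereas RPS27L, RPL7L1, RPL26L1 and RPL10L had none there or near it. A match of letters is a description of the annotated start and not a measured TOP tract.

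The hexamer CACGTG, the E-box sequence to which MYC and MAX are known to bind, reads the same on both strands and was searched in the 300 bases from 250 before to 50 after the start. It was present in 2 of the 47 genes of 40S and 60S proteins (4.26%) and in 1 of 5 paralogs, against 7.43% of all promoters and 8.88% of promoters of protein-coding genes. Whether these shares differ was not tested. A match of letters is not a measured binding site, and other sequences and regions were not searched. The 3 windows of 30 bases that hold the hexamer are shown with it in capitals.
RPL7L1 (chr6:42879488-42879517, plus strand): cacttccacctaCACGTGagagccaaagcc
RPS28 (chr19:8321478-8321507, plus strand): ctctccccgaagCACGTGactcctctccgc
RPL19 (chr17:39200040-39200069, plus strand): gttacagataacCACGTGattgggaaccct
RPS28 and RPL19, of the small and the large subunit, had no TOP-like run at the start itself, but both had one within the wider window. RPS28 had signals of 4259 and 3659 in the control and the MYC siRNA array, and RPL19 had 6315 and 5229. The log2 ratios, MYC siRNA divided by control, were -0.22 and -0.27, near the median of the ribosomal protein genes given below.

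The genes of 40S and 60S proteins were lower with MYC siRNA by a small and rather even amount. Signals under 50 were set to 50, each gene took its probe set with the highest mean signal, and the log2 ratio, MYC siRNA divided by control, was formed for it. Both arrays were scaled to the same mean, so a change of total RNA per cell would not be seen, and less of an mRNA per cell cannot be told apart from fewer cells that hold it. Of the 53 genes, 51 were above 50 in at least 1 array, and RPL36A and RPLP2 were at or under 50 in every probe set that names them alone. All 51 had a log2 ratio under 0 (43 of the 51 after quantile or loess normalization), with a median of -0.23 (1.18-fold lower) and values from -0.60 to -0.13. The quartiles were -0.29 and -0.20. Among all 8917 genes above 50, 46.5% had a log2 ratio under 0 and the median was 0.03. The SD of the log2 ratio over the 51 genes was 0.09, while over all genes, most of them dimmer, it was 0.44. Genes of like signal are compared below. The SD over the 51 genes was close to the SD between probe sets of the same gene. That was 0.10 in 15 genes of ribosomal proteins and paralogs with 36 probe sets above 1000 in both arrays. That SD covers differences between probe sets of the same 2 RNA samples and leaves out the variation between cultures.

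**Figure D1:**
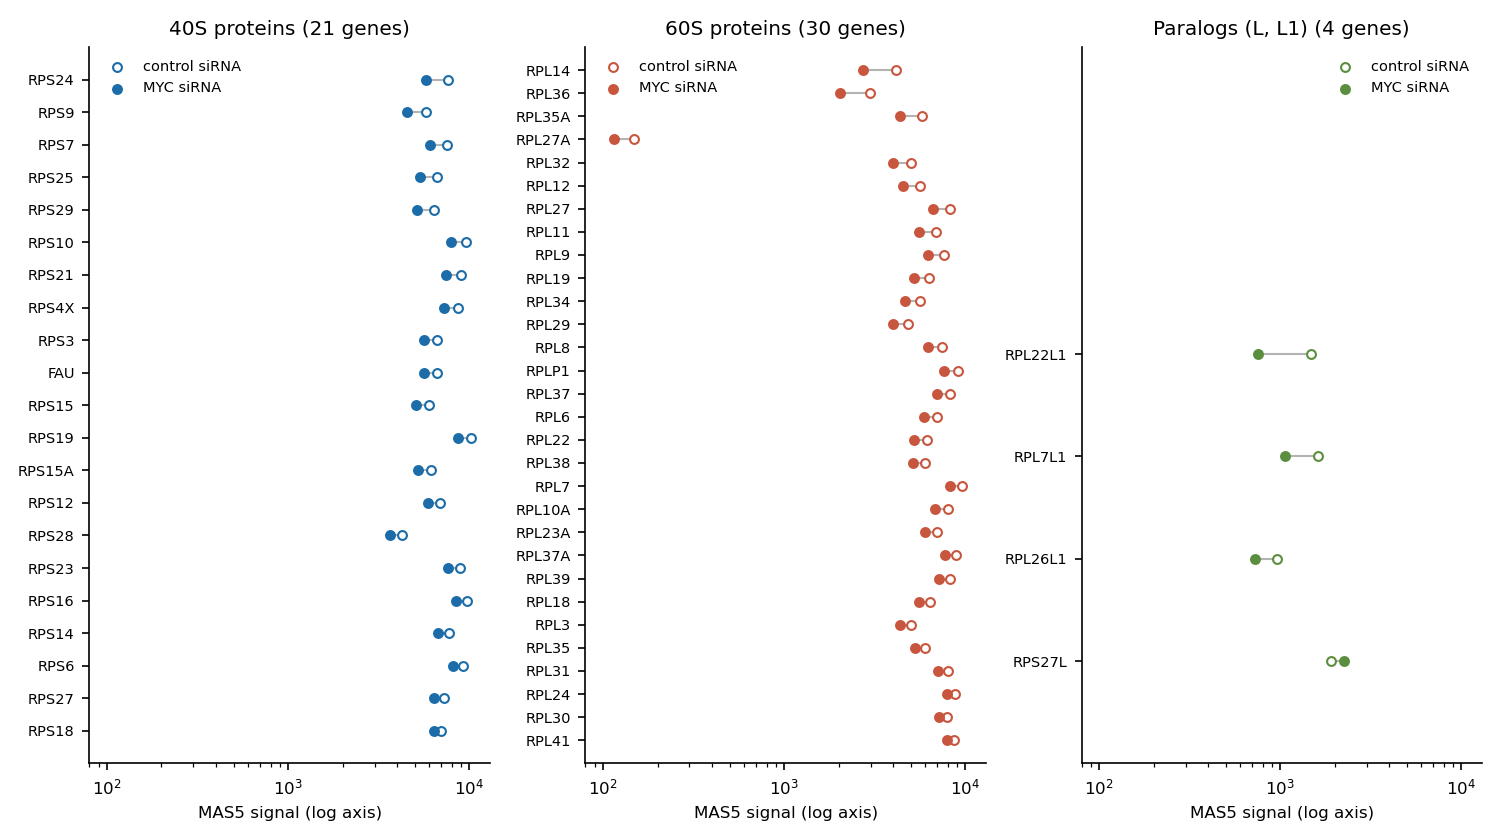
MAS5 signal (x axis, log scale) with control siRNA (open circles) and MYC siRNA (filled circles) of each gene of 40S proteins, 60S proteins and paralogs above 50, ordered by log2 ratio from the lowest at the top. Filled circles lie left of open circles in all 51 genes of 40S and 60S proteins and in 3 of 4 paralogs, and RPS27L is the exception. After loess or quantile normalization 43 of the 51 stay lower.

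Of the 51 genes 1, RPL14, was at least 1.5-fold lower, a bound that 5.72% of all genes passed. Of the 471 other genes with a mean signal of at least 2000, 21 passed it. Bright probe sets of RPS9 and RPL35A that were not in use passed it as well (1.78-fold and 1.56-fold lower). RPL14 missed that bound after loess (log2 ratio -0.46) and quantile normalization (-0.48) and with all its probe sets averaged (-0.38). Median centring put 2 genes past it. None of the 51 was at least 2-fold lower, against 0.695% of all genes and 0 of the 471 other bright genes. Whether these shares differ was not tested.

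The probe sets of these genes gave bright signals, which is a property of the probe sets as well as of the mRNAs and gives no order of mRNA levels. Of the 50 genes with the brightest probe sets 27 were ribosomal protein genes. The control signals of the 51 genes ran from 148 to 10181 with a median of 6995, and the highest signal of any probe set on the control array was 10348. The 471 other genes with a mean signal of at least 2000 had a median log2 ratio of -0.14, with 325 lower and 146 higher and an SD of 0.30. In the class of mean signal from 2000 to 4000, the median was -0.56 in 3 ribosomal protein genes and -0.10 in 336 other genes. From 4000 to 6000 it was -0.27 in 16 ribosomal protein genes and -0.17 in 99 other genes. From 6000 to 8000 it was -0.23 in 20 and -0.17 in 27 other genes. At 8000 or more it was -0.22 in 11 and -0.08 in 9 other genes. The SDs in these classes, in the same order, were 0.21, 0.06, 0.06 and 0.05 in ribosomal protein genes. They were 0.32, 0.26, 0.21 and 0.14 in other genes. Every ribosomal protein gene in these classes was lower, whereas some other genes in each class were higher.

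The size of the decrease depended on the scaling. The median of the 51 genes was -0.06 after loess of the ratio on signal and -0.07 after quantile normalization, with 43 of the 51 genes still under 0 in each case. RPL24, RPL30, RPL41, RPS6, RPS18 and RPS27 were at or above 0 after both, by at most 0.06. The median of the other genes of at least 2000 was then 0.02 and 0.01. The gap between both medians was -0.09 as measured, -0.08 after loess and -0.07 after quantile normalization. Across the 51 genes, brighter ones had smaller decreases (Pearson's r = 0.56 and Spearman's rho = 0.46 between mean signal and log2 ratio). Without RPL27A, RPL36 and RPL14, the 3 with the lowest mean signals, r was 0.36 and rho 0.36 over 48 genes. The genes share both arrays and are not independent, and the part of signal level in the decrease was not tested further.

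**Figure D2:**
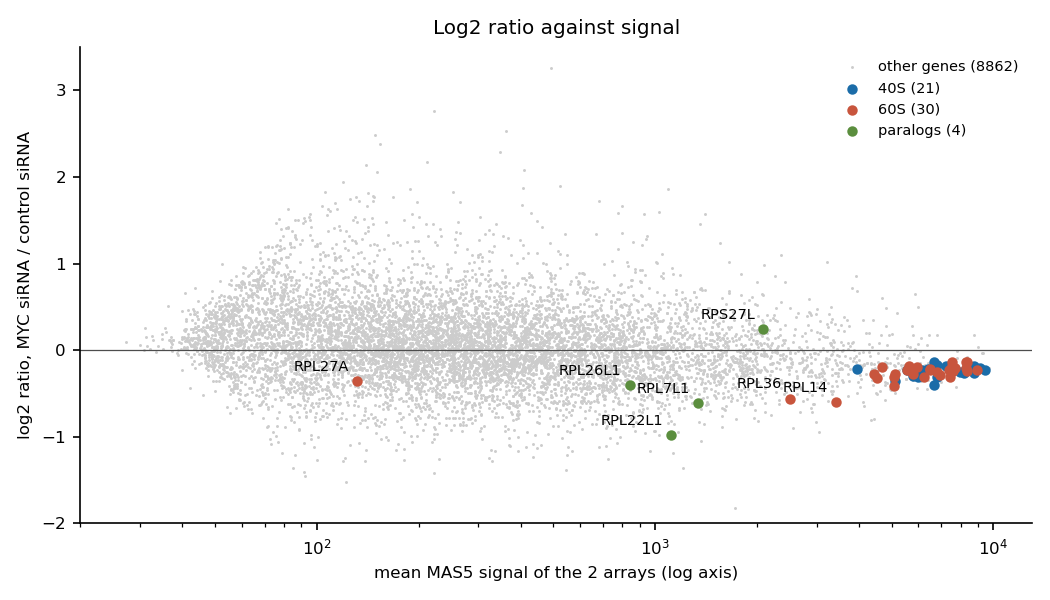
Log2 ratio, MYC siRNA divided by control (y axis) against the mean MAS5 signal of both arrays (x axis, log scale) for 21 genes of 40S proteins, 30 of 60S proteins, 4 paralogs and all other genes above 50 (grey). The 40S and 60S genes lie between -0.60 and -0.13 and, apart from RPL27A, at the bright end, and the paralogs lie at lower signals and farther from each other. After loess or quantile normalization 43 of the 51 genes of 40S and 60S proteins stay under 0.

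The genes of the small and the large subunit were compared by their medians, as a description without a test. The 21 genes of 40S proteins had a median log2 ratio of -0.23 (from -0.40 to -0.14) and the 30 genes of 60S proteins one of -0.24 (from -0.60 to -0.13). The difference of the medians, 60S minus 40S, was -0.0041, and it was 0.0035 after loess and 0.0151 after quantile normalization, so it had no settled direction. The SD over genes was 0.06 in the 40S and 0.11 in the 60S, and the 60S value holds the 3 lowest genes of both subunits, RPL14, RPL36 and RPL35A. With every probe set of a gene averaged, which counts probe sets at or under 50 as unchanged, the difference was -0.11.

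**Figure D3:**
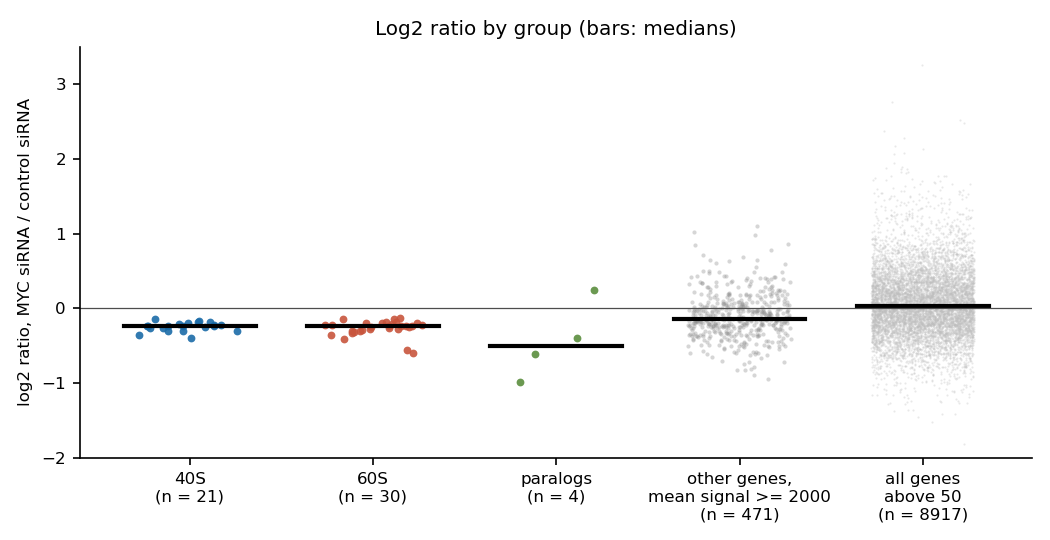
Log2 ratio, MYC siRNA divided by control (y axis) of single genes (points) in 5 groups, with the median of each as a black bar. The medians of 40S (-0.23) and 60S genes (-0.24) lie together and below those of other bright genes (-0.14) and of all genes (0.03), and the 4 paralogs range from -0.98 to 0.24. After loess or quantile normalization 43 of the 51 genes of 40S and 60S proteins stay under 0.

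Among 60S proteins, RPL14, on the surface of the large subunit, had a signal of 4141 in the control array and 2728 in the MYC siRNA array, a log2 ratio of -0.60, and the same order of arrays holds for all pairs of signals below. Its other bright probe set gave -0.54, so both lay below the lower quartile of the 51 genes. RPL36 had signals of 2983 and 2026 (log2 ratio -0.56) in its only probe set above 50. RPL35A, mutated in some families with Diamond-Blackfan anaemia, had 5801 and 4360 (-0.41), and a probe set that was nearly as bright gave -0.64. RPL27A had 148 and 115 (-0.36), a probe set much dimmer than those of the other genes, since its other 2 probe sets name a small nucleolar RNA as well and were not used.

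RPL11, which with RPL5 and 5S ribosomal RNA can bind and inhibit the p53 ligase MDM2, had signals of 6894 and 5580 (log2 ratio -0.31), just below the lower quartile. RPLP1, of the stalk that recruits elongation factors, had 9059 and 7639 (-0.25). The smallest decreases of the 60S were in RPL41, the shortest ribosomal protein, with 8699 and 7943 (-0.13), in RPL30 with 7911 and 7189 (-0.14), in RPL24, of a bridge between the subunits, with 8767 and 7955 (-0.14) and in RPL31 with 8017 and 7069 (-0.18). After loess and quantile normalization RPL41 was at 0.06 in each, so its direction depended on the scaling.

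Among 40S proteins, RPS24 was lowest with signals of 7598 and 5747 (log2 ratio -0.40), and its second probe set, dimmer at 236 and 168, gave -0.49. RPS9 had 5758 and 4508 (-0.35). A second bright probe set of RPS9 had 3311 and 1859 (-0.83), the lowest value of any bright probe set of the 40S and 60S genes. RPS3, at the entry of the mRNA channel and a loading control on immunoblots of the study, had 6626 and 5621 (-0.24), close to the median. RPS6, the substrate of the S6 kinases, had 9286 and 8180 (-0.18), and all 3 of its probe sets above 50 lay between -0.19 and -0.16. FAU, which encodes RPS30 joined to a ubiquitin-like protein, had 6643 and 5646 (-0.23). The smallest decreases of the 40S were in RPS18 with 7021 and 6366 (-0.14) and RPS27 with 7221 and 6416 (-0.17).

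Genes with and without the TOP-like run at the annotated start had overlapping log2 ratios. Since 43 of the 47 genes held the run in the wider window, most genes without it at the start had it nearby. The split therefore cannot show whether the run makes a difference. The 32 genes above 50 with the run had a median log2 ratio of -0.23 (from -0.60 to -0.13), and the 13 without it had -0.27 (from -0.33 to -0.20). The ranges overlap, and both groups were lower in every gene.

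Probe sets of the same gene gave a second reading for 23 members, and in 20 of these all probe sets above 50 were lower. Of 121 probe sets in all, 89 were above 50 in at least 1 array. All 71 bright probe sets of the 40S and 60S genes, with a control signal of at least 1000, were lower (median -0.23, from -0.83 to -0.07). The 13 dim ones had a median of -0.36, and 10 were lower and 3 higher. The higher ones were 2 of RPL31 (0.31 and 0.04) and 1 of RPS15A (0.11), while the brightest of the same genes gave -0.18 and -0.23. Dim probe sets of RPL18, RPL37 and RPS21 gave larger decreases (-0.70, -0.63 and -0.62) than the bright ones (-0.20, -0.24 and -0.27). No member had probe sets more than 0.58 apart, and RPL18 had the widest span with 0.51. Of the 51 probe sets in use for the 40S and 60S genes, 41 are of the kinds that can bind several transcripts or related sequences. This bears on ribosomal proteins, which have many pseudogenes, so each value may hold signal from related sequences.

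**Figure D4:**
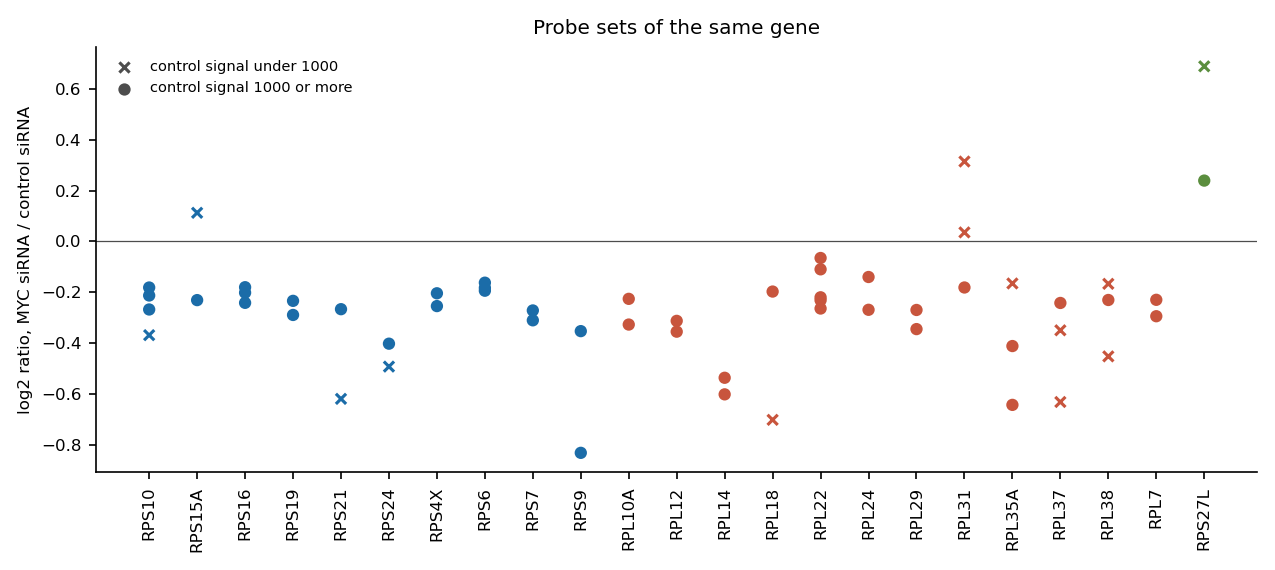
Log2 ratio, MYC siRNA divided by control (y axis) of each probe set above 50 in the 23 members with at least 2 of them (40S in blue, 60S in red, paralog in green). Circles have a control signal of at least 1000 and crosses a lower one; circles of the same gene mostly lie within 0.2 of each other, apart from RPS9 and RPL35A, and the values above 0 are crosses of RPS15A and RPL31 and both probe sets of RPS27L.

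The 4 paralogs above 50 ran from -0.98 to 0.24 in log2 ratio, 3 of them lower and 1 higher. RPL22L1 had signals of 1484 and 751, a decrease of 1.98-fold and a log2 ratio of -0.98. It was the lowest member, and 0.751% of all genes above 50 were lower than it. Its parent RPL22, which binds structured RNA, had 6109 and 5202 (-0.23), and its 5 probe sets ranged from -0.26 to -0.07. The difference, RPL22L1 minus RPL22, was -0.75, and it ranged from -0.92 to -0.75 over all alternatives tried. As shown above, RPL22L1 alone of the 5 paralogs with a promoter in the table had a TOP-like run at its start. A link of the run to the decrease was not tested.

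RPL7L1, whose protein takes part in the assembly of the large subunit, had signals of 1617 and 1057 (1.53-fold lower, log2 ratio -0.61) in its only probe set that names it alone. Its parent RPL7 had 9629 and 8210 (-0.23), a difference of -0.38. Only RPL22L1 was lower among the members. RPL26L1 had 959 and 725 (1.32-fold lower, log2 ratio -0.40), and 12.3% of all genes were lower. Its parent RPL26 had no probe set of its own and was not analysed here.

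RPS27L, known as a gene that p53 can induce, was the only member above 50 that was higher in its brightest probe set before further normalization. A part of p53 in this was not tested. After both loess and quantile normalization RPL24, RPL30, RPL41 and RPS18 were above 0 too, by at most 0.06. The signals of RPS27L were 1914 and 2259 (1.18-fold higher, log2 ratio 0.24), and a dim probe set with 78.1 and 126 gave 0.69. The parent RPS27 was lower, as given above, so that the difference was 0.41. The remaining paralogs, RPL3L of muscle and RPL10L and RPL39L, known from testis, did not pass 50 in either array and have no ratio, while RPL3 had 5002 and 4368 (-0.20) and RPL39 had 8239 and 7156 (-0.20). RPL10, the parent of RPL10L, had no probe set of its own. Levels of a paralog and its parent come from different probe sets and cannot be ranked.

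Other genes whose mRNAs carry a TOP tract had lower signals too. All 14 with a probe set of their own were lower, beside 46.5% of all genes and 69.0% of the other genes with a mean signal of at least 2000. None was 1.5-fold lower in the probe set in use, a bound that 5.72% of all genes passed. Other probe sets of NPM1 and NAP1L1 did pass it, with log2 ratios down to -0.68 and -0.67. The median log2 ratio was -0.30, and its difference from the ribosomal protein genes was not tested. After loess and quantile normalization 11 and 12 of the 14 were lower, with medians of -0.15 and -0.16. The lowest were EIF4B, an initiation factor, with signals of 1332 and 974 (-0.45), BTF3 with 5004 and 3799 (-0.40) and HNRNPA1 with 947 and 728 (-0.38). The probe sets of HNRNPA1 ranged from -0.39 to -0.04 and those of BTF3 from -0.57 to -0.31. The least changed were EEF1A1, the elongation factor that brings tRNA to the ribosome, with 10348 and 9003 (-0.20), TPT1 with 9211 and 8246 (-0.16) and EIF3H with 5203 and 4684 (-0.15).

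Chaperones and importers of ribosomal proteins included several decreases of at least 1.5-fold. Of 15 genes, 14 were lower, beside 46.5% of all genes, and 5 of them by at least 1.5-fold, beside 5.72% of all genes, and the median was -0.39. NAP1L1 (-0.37) is counted both here and among the other TOP mRNA genes. After loess and quantile normalization the medians were -0.38 and -0.39, and 3 genes were at least 1.5-fold lower in each case. PRMT3, which methylates RPS2, had signals of 738 and 383 (1.93-fold lower), PDCD2L had 479 and 256 (1.87-fold lower) and BCCIP, which binds RPL23, had 2567 and 1452 (1.77-fold lower). The probe sets of BCCIP ranged from -0.83 to -0.06 in log2 ratio. Those of IPO9, counted as lower, ranged from -0.21 to 0.32, so its direction depended on the probe set. At the other end, GRWD1, an escort of RPL3, had 352 and 313 (-0.17), AAMP, a counterpart of the yeast escort of RPL10, had 736 and 725 (-0.02) and TSR2, the escort of RPS26, had 351 and 372 (0.08).

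Genes that control the translation of TOP mRNAs were lower in 9 of 12 and higher in 3, beside 46.5% of all genes that were lower. Their median was -0.38 on the log2 scale (-0.33 after loess and after quantile normalization). After loess 8 of 12 were lower, and after quantile normalization 10 of the 13 then above 50. EIF4EBP1, the inhibitor of eIF4E that mTORC1 switches off, had signals of 504 and 236 (2.13-fold lower), EIF4E had 1717 and 1131 (1.52-fold lower), and LARP1 had 3104 and 2280 (-0.44). TSC1, which restrains mTORC1, had 114 and 162 (1.42-fold higher), EIF4EBP2 had 291 and 355 (1.22-fold higher) and TSC2 had 87.0 and 92.8 (0.09). The probe sets of EIF4E ranged from -0.60 to -0.21 in log2 ratio and those of EIF4EBP2 from 0.29 to 0.93. Those of RHEB, counted as lower, ranged from -0.14 to 0.29, so its direction depended on the probe set. RPTOR was at or under 50 in both arrays.

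Of the genes around the 5S particle and p53, all 6 with a probe set of their own were lower (median -0.36), RPL11 included, and all 6 were lower after loess and quantile normalization too (medians -0.28 and -0.31). Of all genes 46.5% were lower and 5.72% at least 1.5-fold lower, as were 2 of these 6. BRIX1 and RRS1, which place the 5S particle in the large subunit, had signals of 354 and 185 (1.92-fold lower) and of 862 and 479 (1.80-fold lower). GTF3A, the factor for transcription of 5S ribosomal RNA, had 3930 and 2947 (1.33-fold lower). MDM4 had 251 and 208 (-0.27) and MDM2 had 462 and 394 (-0.23). The median signal of all genes above 50 was 250 with control siRNA, and bright genes had lower log2 ratios than genes on the whole array, so genes of different brightness are not on an equal footing.

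**Figure D5:**
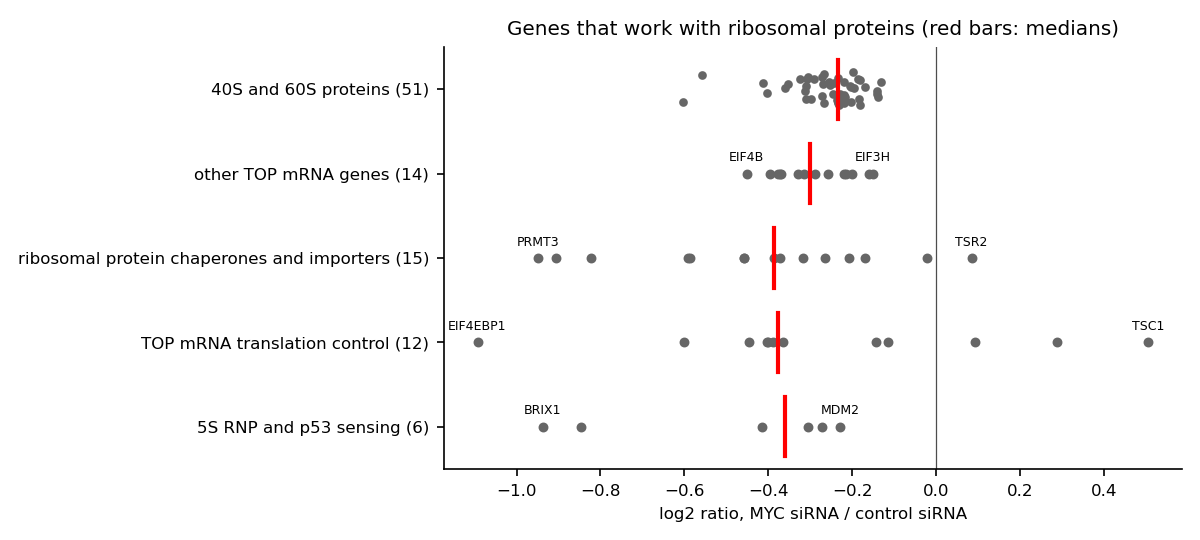
Log2 ratio, MYC siRNA divided by control (x axis) of 51 genes of 40S and 60S proteins and of 4 lists of genes that act on them or share the TOP tract, with numbers of genes in brackets, medians as red bars and the lowest and highest gene of each list named. The medians are -0.23 for 40S and 60S genes and -0.30, -0.39, -0.38 and -0.36 for the lists, and the single genes of the last 3 lists spread more widely than those of the first 2 groups. After loess normalization 43 of 51, 11 of 14, 13 of 15, 8 of 12 and 6 of 6 genes are under 0. NAP1L1 is in both the TOP and the chaperone list, and RPL11 is both among the 60S genes and in the 5S list.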

How the data were processed

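RNA of HT-29 cells was hybridized to GeneChip Human Genome U133 Plus 2.0 arrays, 1 per group. The authors computed intensity values with the MAS5 algorithm (affy 1.40.0, per the labels) on a linear scale, with a target mean of 100 for each array, and deposited them without floor or logarithm. The mean without the outer 2% of probe sets was 100 in both. Above 50 were 16074 probe sets with control siRNA and 16571 with MYC siRNA. Of 54675 probe sets, 41097 name 1 gene, 1801 several and 11777 are not listed, and symbols were updated through gene identifiers (RefSeq, GRCh38.p14).

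Signals under 50 were set to 50, as in the study's methods, and log2 ratios were taken from the brightest probe set of each gene by mean signal. Counts used ratios of 1.5 and 2. There was no test, since each group has 1 array; the number of arrays limits the precision. Calculations were tested on simulated data. Named are all paralogs and parents, the 6 lowest and 6 highest ribosomal protein genes, the 3 lowest and 3 highest genes of each other list, members with probe sets over 0.58 apart (none), MYC, and RPS3, RPS6, RPL5, RPL11, RPLP0, RPSA, FAU and RPS27A. RPLP1, members named for disagreeing probe sets, for the CACGTG match or for their value after other scalings were chosen after their values were seen. Members and lists were chosen with earlier results of these data known. Python 3.11.15, numpy 2.4.6, pandas 2.3.3, statsmodels 0.14.6 and matplotlib 3.10.9 were used.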

Additional observations from a re-analysis of the deposited data

How the results depend on the processing

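Of 241 values under 12 alternatives (2 of them chosen after seeing the data), 206 differed by less than the SD between probe sets (0.10) or, for counts, by less than 1.5 times, 33 moved further and 2, both of RPL41, changed direction from a log2 ratio larger than that SD. The 60S minus 40S difference, -0.0041, also changed sign, to 0.0151 after quantile normalization, 0.0035 after loess and 0.0396 without probe sets that can bind several transcripts. After quantile normalization the median log2 ratio was -0.065 over ribosomal protein genes, -0.0757 in the 40S and -0.0606 in the 60S, no gene was 1.5-fold lower, and RPL22L1 minus RPL22 was -0.88. After loess (span 0.3) the 3 medians were -0.0608, -0.0616 and -0.0581, no gene was 1.5-fold lower, RPL22L1 minus RPL22 was -0.85 and RPL7L1 minus RPL7 was -0.50. RPL41 was at 0.0564 after quantile and 0.0630 after loess normalization. By construction both methods take out a shift that genes of like signal share. Median centring put 2 genes at 1.5-fold lower. With every probe set of a gene averaged, 0 were 1.5-fold lower and the 60S minus 40S difference was -0.11. Without probe sets that can bind several transcripts 18 genes were left, 16 of them lower, and RPL22L1 minus RPL22 was -0.92, as it was without x probe sets alone. With probe sets that name 1 ribosomal protein gene beside other names, 68 genes were above 50 and all 68 were lower, with a median of -0.23; they are not named. Floors of 25, 100 and none and brighter signals of at least 100 or 1000 moved none of these values further. No paired analysis was possible because each group is 1 array. Variation between cultures could not be measured.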
